A study of Mus musculus with 8 samples.

Results

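Regions of open chromatin at genes of the tumour necrosis factor (TNF) superfamily were examined in leukemic mouse marrow cells with low PU.1. A region was taken as a member where its centre had, as the nearest annotated gene within 100 kb, a gene whose symbol begins with Tnfsf or Tnfrsf, or Tnf, Lta, Ltb, Fas, Fasl, Cd40, Cd40lg, Cd27, Cd70 or Ltbr. This gave 252 of the 160978 regions, 92 at ligand genes and 160 at receptor genes. The farthest member lay 62.2 kb from its gene, at Fas, where the authors' deposited table gives a log2 fold change of -1.33 (adjusted p = 0.0532), and no region beyond 100 kb had a member gene as its nearest. Of the 43 gene symbols that meet the rule 41 had at least 1 region, the receptor genes Tnfrsf4 and Tnfrsf18 having 0. The ligand symbols include Tnfsf13os, a noncoding RNA gene, and Tnfsfm13, a read-through gene spanning Tnfsf12 and Tnfsf13, so 5 regions at that locus are described together.

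Chromatin accessibility was assayed by ATAC-seq, in which a transposase inserts sequencing adapters into open DNA, in bone marrow cells sorted as cKit+ Lymph- Ery-, a fraction holding stem and progenitor cells. The 4 libraries from mice with acute myeloid leukemia carried URE-delta/+;Tet2+/- (2 libraries) or URE-delta/+;Tet2-/- (2 libraries), where URE is the upstream enhancer of the PU.1 gene and Tet2 encodes a DNA demethylation enzyme. The 4 libraries from normal mice, described as age-matched, were 1 each of URE+/+;Tet2+/+, URE-delta/+;Tet2+/+, URE+/+;Tet2+/- and URE+/+;Tet2-/-. The titles carry lane tags, lanes 6 and 7 for the leukemic libraries and 2 normal ones, and lane 8 for the 2 normal libraries with Tet2 loss. The deposited comparison sets leukemic against non-leukemic cells with low PU.1, with the libraries it used not given in the sources used here. Only 1 normal library carried the URE deletion, and none carried it together with Tet2 loss, so leukemia and the combined genotype cannot be told apart. If low PU.1 stands for the URE deletion, the non-leukemic side holds 1 library. Values per library were not used, so no spread between mice and no depth can be given for any fold. A fold here is the authors' log2 fold change of leukemic over non-leukemic cells, with the direction taken from the table's name and the sign of its up and down sets. Abundance is the column read, from its place and range, as their log2 average read level, and no source used here states its normalization. The log base of both columns is likewise inferred. The verbs rose and fell are kept for regions with an adjusted p under 0.001, the threshold of the authors' own sets, and a second, looser threshold of 0.05 is named where it is used.

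TNF superfamily ligands are mostly membrane-bound trimers that can be shed, and they bind receptors with cysteine-rich repeats on neighbouring cells. Some receptors carry a death domain and can start apoptosis through FADD and caspase-8, while others recruit TRAF adaptors that lead to NF-kB. In marrow, TNF acts on stem and progenitor cells, the ligand RANKL directs osteoclast formation from myeloid precursors, and BAFF and APRIL support B and plasma cells. A change in accessibility at such a gene is not a change in its transcript, which was not measured here.

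Promoter sequences are shown for the 3 member genes whose own promoter lay under a region with an adjusted p under 0.05 (Cd27, Tnfrsf23 and Tnfsf13). That of Tnfrsf1b is shown because its gene held gains away from the promoter, and that of Ltb because it alone among member promoters matched an NF-kB motif. Each is the 250 bases before the RefSeq start in GRCm38.p6, written 5′ to 3′ on the gene's strand. The windows lie at chr6:125237028-125237277 (Cd27, minus strand), chr7:143685876-143686125 (Tnfrsf23, minus), chr11:69685555-69685804 (Tnfsf13, minus), chr4:145246871-145247120 (Tnfrsf1b, minus) and chr17:35194257-35194506 (Ltb, plus). Capitals mark GGAA on either strand, the core bound by ETS factors such as PU.1, except in Ltb, where they mark the match to the NF-kB motif.
Cd27: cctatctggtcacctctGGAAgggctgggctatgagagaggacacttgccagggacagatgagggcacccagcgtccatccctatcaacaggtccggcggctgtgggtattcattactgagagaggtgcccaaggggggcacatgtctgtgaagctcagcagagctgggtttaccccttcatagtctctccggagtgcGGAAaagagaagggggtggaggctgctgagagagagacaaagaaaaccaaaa
Tnfrsf23: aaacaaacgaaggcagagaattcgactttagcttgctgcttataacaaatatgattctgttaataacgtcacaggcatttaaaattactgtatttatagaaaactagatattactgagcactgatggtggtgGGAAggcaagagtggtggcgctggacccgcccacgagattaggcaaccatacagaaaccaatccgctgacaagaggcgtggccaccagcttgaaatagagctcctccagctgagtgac
Tnfsf13: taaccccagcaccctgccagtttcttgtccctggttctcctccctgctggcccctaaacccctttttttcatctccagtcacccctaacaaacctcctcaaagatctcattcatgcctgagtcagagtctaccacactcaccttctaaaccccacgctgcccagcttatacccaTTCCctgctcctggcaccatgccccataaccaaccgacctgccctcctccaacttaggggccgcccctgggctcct
Tnfrsf1b: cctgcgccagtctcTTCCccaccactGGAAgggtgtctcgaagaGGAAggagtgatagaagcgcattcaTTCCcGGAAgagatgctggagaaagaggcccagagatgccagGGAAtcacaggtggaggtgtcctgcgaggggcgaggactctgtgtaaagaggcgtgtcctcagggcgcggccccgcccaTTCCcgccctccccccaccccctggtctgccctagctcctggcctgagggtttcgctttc
Ltb: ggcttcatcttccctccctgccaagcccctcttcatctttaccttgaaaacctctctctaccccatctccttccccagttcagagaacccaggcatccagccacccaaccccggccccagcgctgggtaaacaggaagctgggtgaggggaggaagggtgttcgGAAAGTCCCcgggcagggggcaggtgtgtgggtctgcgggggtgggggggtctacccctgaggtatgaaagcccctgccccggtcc

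These windows held 2 GGAA cores at Cd27, 1 at Tnfrsf23, 1 at Tnfsf13, 7 at Tnfrsf1b and 5 at Ltb. Those at Ltb are not marked as such, and the NF-kB match there overlaps a GGAA core. Tnfrsf8, Tnfsf11 and Tnfrsf13b also had a region that rose or fell, and their windows, not shown, held 4, 2 and 3 cores. The median was 3 over all windows and 3 over member windows. The core is too short to set a gene apart, since 93.4% of the 32851 RefSeq windows of this length hold it. The longer PU.1 motif GAGGAAGT, read on both strands, contains that core and was found in 2.44% of all windows and in 1 of the 36 windows of member genes, at Tnfsf18. None of the following motifs contains the core. The AP-1 motif TGANTCA was found in 6 member windows, at Tnfrsf8, Tnfrsf9, Tnfsf13b, Tnfsf13, Tnfsf14 and Fas, and in 6.75% of all windows. The NF-kB motif GGGACTTTC was found in 0.289% of all windows and at Ltb alone among the 36, 86 bases before its start. The RUNX motif TGTGGT was in 3 member windows and 14.0% of all, and the E-box CACGTG in 5 and 6.02%. A match describes the letters only.

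Over the superfamily as a whole the changes were near the level of all regions. At an adjusted p under 0.001, 5 of the 252 regions rose (1.98%), against 1.24% of all regions, and 1 fell (0.397%), against 1.22% of all regions. At an adjusted p under 0.05, 20 were higher (7.94%), against 7.98% of all regions, and 23 lower (9.13%), against 9.21%. Ligand regions gave 1 that rose and 0 that fell, with 5 higher and 6 lower at 0.05. Receptor regions gave 4 that rose and 1 that fell, with 15 higher and 17 lower at 0.05. The median log2 fold change was -0.26 over ligand regions and 0.01 over receptor regions, beside 0.02 over all regions. With the median of all regions within 5 Mb subtracted these became -0.36 and -0.12.

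**Figure D1:**
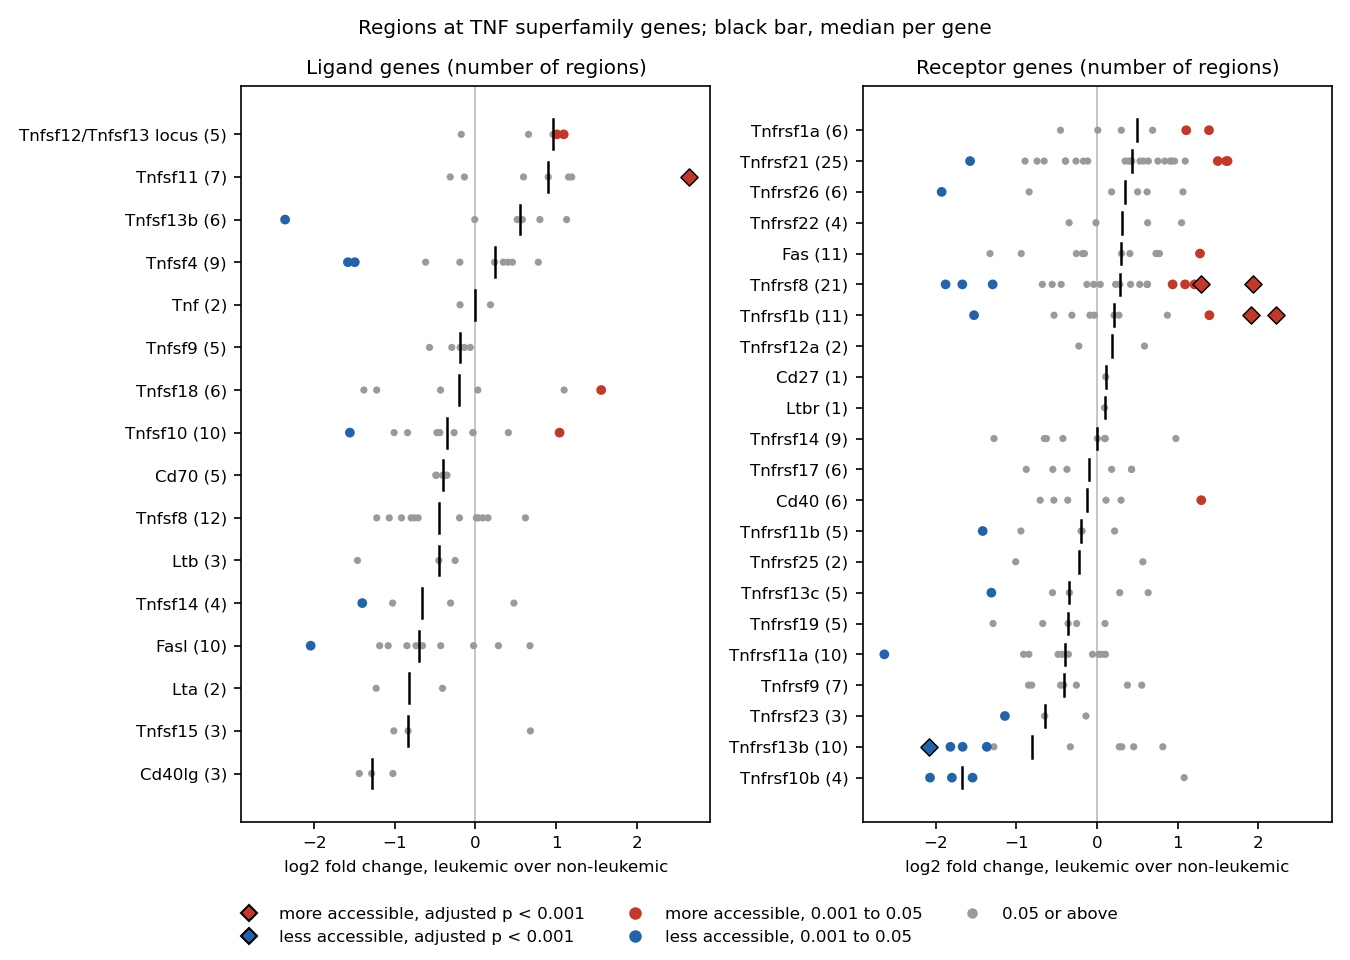
Log2 fold change (x axis) of each of the 252 regions at TNF superfamily genes, by gene, with ligands left and receptors right; genes are ordered by their median, drawn as a black bar, and the number of regions is in brackets. Diamonds are the 6 regions with an adjusted p under 0.001, of which 4 lie at Tnfrsf1b and Tnfrsf8, and coloured dots are those between 0.001 and 0.05.

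Of the 5 regions that rose 4 lay at 2 neighbouring receptor genes, those for TNF and CD30 ligand. Tnfrsf1b, which encodes TNF receptor 2, a receptor without a death domain, and Tnfrsf8, which encodes CD30, are neighbours on chromosome 4 with 20.3 kb between them. Together they had 32 regions over 138.6 kb, of which 4 rose (12.5%) and 0 fell, beside 1.24% and 1.22% of all regions. The remaining 220 member regions had 1 that rose and 1 that fell. The 2 genes were picked after their calls were seen. Their regions had a median abundance of 0.41, against -0.95 for the other members and -1.17 for all regions. Calls moved with read level, as given below. At 0.05 the stretch had 8 higher and 4 lower regions. Its surroundings were only slightly raised, with a median log2 fold change of 0.24 over the 787 other regions within 5 Mb of the Tnfrsf1b regions, members left out.

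Within Tnfrsf1b the largest gain per the authors' deposited table was 2.21 (adjusted p = 1.16e-04) at chr4:145229208-145230067, 17.2 kb inside the gene from its start. A second stood at 1.90 (adjusted p = 3.11e-04) per the authors' deposited table at chr4:145219717-145219897, 27.1 kb inside. The region at chr4:145214413-145214739, nearer the far end of the gene, had 1.39 (adjusted p = 0.00241) per the authors' deposited table. Between these regions and the promoter lay a region in the opposite direction, chr4:145233357-145234276, at -1.52 (adjusted p = 0.00199) per the authors' deposited table, its centre 4.18 kb from that of the largest gain. Neither the promoter, at 0.27 (adjusted p = 0.908), nor the region 5.88 kb inside the gene, at -0.53 (adjusted p = 0.091), passed 0.05 per the authors' deposited table. The regions that rose thus lay well inside the gene and not at its start.

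Tnfrsf8 also had regions in both directions. Per the authors' deposited table chr4:145294650-145294903 stood at 1.93 (adjusted p = 5.07e-04), 20.4 kb inside the gene from its start. The region chr4:145267592-145268707, at the far end, stood at 1.29 (adjusted p = 3.83e-04) per the authors' deposited table. Lower regions lay close to both. One at chr4:145270202-145270446 had -1.67 (adjusted p = 0.00375), with its centre 2.17 kb from that of the far-end gain, and one at chr4:145299840-145300698 had -1.29 (adjusted p = 0.00268), both per the authors' deposited table. The Tnfrsf8 promoter was at -0.68 (adjusted p = 0.295) per the authors' deposited table. Along both genes, of the 11 pairs of successive regions under 0.05, 5 were opposite in sign. These pairs skip the regions not under 0.05, and their centres lay from 0.956 to 48.8 kb apart. No such share was taken over all regions, so this count is no result about the stretch. The median over the 21 Tnfrsf8 regions was 0.28 and that over the 11 Tnfrsf1b regions 0.21, close to the local medians of 0.25 and 0.24. With abundance at least 0 they were 0.94 and 0.09.

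**Figure D2:**
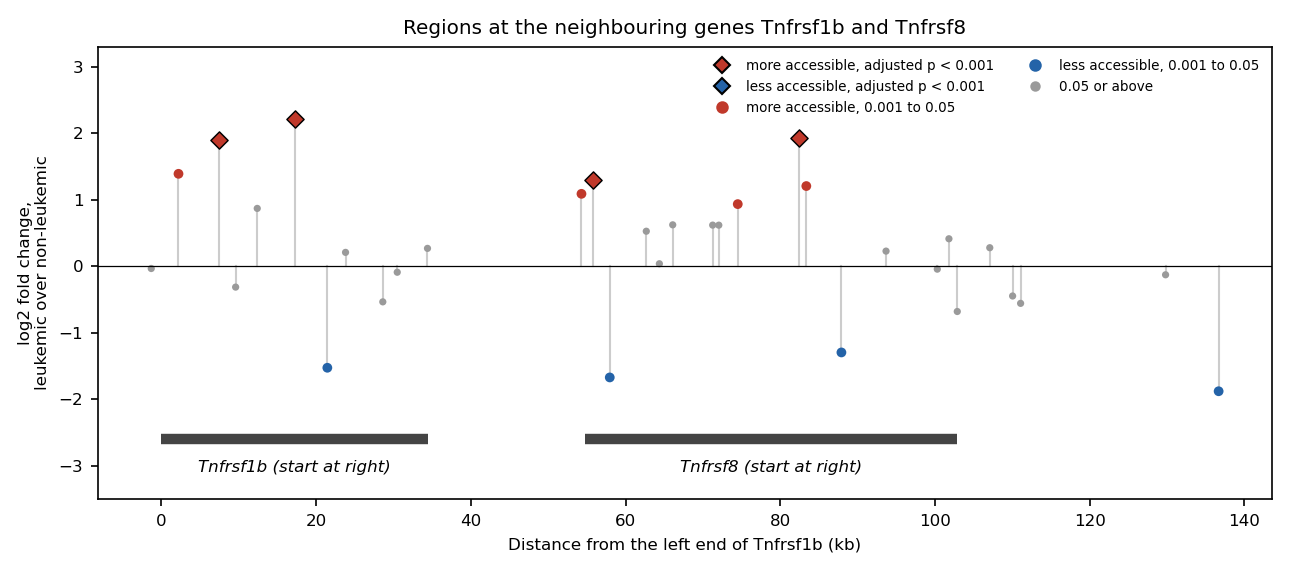
Log2 fold change (y axis) of the 32 regions at Tnfrsf1b and Tnfrsf8 by distance in kb from the left end of Tnfrsf1b (x axis); dark bars are the gene extents. The 4 diamonds mark gains under 0.001, and lower regions between 0.001 and 0.05 (blue) stand within a few kb of several of them.

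The other receptor and the ligands of this group showed smaller values. Tnfrsf1a, which encodes the death-domain TNF receptor 1, had 2 of 6 regions higher at 0.05, at 1.39 (adjusted p = 0.0161) and 1.11 (adjusted p = 0.0188) per the authors' deposited table. Both lay in the far end of the gene, 12.5 and 10.5 kb from the start, while its promoter was at -0.45 (adjusted p = 0.72) per the authors' deposited table. Tnf, the gene of the founding cytokine, had 2 regions, at -0.19 over the promoter and 0.19 inside the gene, with adjusted p of 0.635 and 0.607 per the authors' deposited table. Lta, the lymphotoxin alpha gene beside it, had a promoter value of -0.41 and a region 4.59 kb outside the gene at -1.23 (adjusted p = 0.0684) per the authors' deposited table. Tnfsf8, which encodes the CD30 ligand, had 12 regions and 0 under 0.05, with a lowest adjusted p of 0.054 at -1.07 inside the gene per the authors' deposited table. With only protein-coding genes as candidates it had 20 regions, 1 higher and 2 lower at 0.05. The higher one stood at 2.26 (adjusted p = 0.00224) per the authors' deposited table. In these groups each of the 4 regions called at 0.001 lay at a receptor gene, and the difference between receptors and ligands was not tested.

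In the RANK group the ligand gene had 1 region under 0.05, which was higher, and the 2 receptor genes had 2, both lower. The difference was not tested, and with only protein-coding genes as candidates the ligand gene had 2 higher and 4 lower. Tnfsf11 encodes RANKL, the ligand that drives osteoclast formation, and its 7 regions included the largest gain of all members. Per the authors' deposited table chr14:78287958-78288462, 19.8 kb inside the gene, stood at 2.65 (adjusted p = 2.40e-04). The Tnfsf11 promoter had 1.15 (adjusted p = 0.0908), and 2 regions 71.8 and 70.7 kb from the start had 1.19 and 0.90, per the authors' deposited table. The median over the 7 regions was 0.90, beside a local median of -0.000849 over 715 regions. It was 0.60 over regions overlapping the gene or 5 kb on either side, and 0.19 with only protein-coding genes as candidates. Tnfrsf11a, which encodes the receptor RANK on osteoclast precursors, had the lowest value of all members, -2.64 at chr1:105787037-105787311, 6.45 kb inside the gene per the authors' deposited table. Its adjusted p of 0.00122 made it the region nearest to the threshold of 0.001 from above. The other 9 Tnfrsf11a regions ran from -0.91 to 0.10 and none passed 0.05 per the authors' deposited table. With only protein-coding genes as candidates Tnfrsf11a had 16 regions, 0 higher and 2 lower at 0.05. The added lower region stood at -2.02 (adjusted p = 0.00153) per the authors' deposited table. Tnfrsf11b, the gene of the soluble decoy receptor osteoprotegerin, had 1 of 5 regions lower at 0.05, at -1.42 (adjusted p = 0.022) per the authors' deposited table.

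The BAFF and APRIL receptors, best known from B cells and plasma cells, gave the only region that fell. Tnfrsf13b encodes TACI, and chr11:61115938-61116937, 9.85 kb outside the gene on the side of its start, stood at -2.08 (adjusted p = 5.20e-04) per the authors' deposited table. Further upstream, chr11:61112282-61113008 had -1.67 (adjusted p = 0.0261) and chr11:61108895-61109959 had -1.37 (adjusted p = 0.0167), and inside the gene chr11:61142275-61144350 had -1.82 (adjusted p = 0.00209), per the authors' deposited table. So 4 of 10 TACI gene regions were lower at 0.05 and 0 higher, while its promoter stood at 0.31 (adjusted p = 0.727) with an abundance of -2.42 per the authors' deposited table. The median over the 10 was -0.80, against a local median of 0.19 over 783 regions. It depends on which regions are counted: over regions overlapping the gene or 5 kb on either side the median was 0.15, since the upstream group lies beyond that limit, and with abundance at least 0 it was -1.59. Tnfrsf13c, the BAFF receptor gene, had 1 of 5 regions lower at 0.05, at -1.31 (adjusted p = 0.0206) per the authors' deposited table. Tnfrsf17, which encodes BCMA of plasma cells, had 6 regions, none under 0.05. Over these 3 receptor genes 5 of 21 regions were lower at 0.05 and 0 higher, beside 9.21% and 7.98% of all regions.

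The ligands of these receptors went both ways. Tnfsf13b, the BAFF gene, had a region at chr8:10030723-10031465, 24.5 kb inside the gene, with -2.36 (adjusted p = 0.00539) per the authors' deposited table. Its promoter had 0.52 (adjusted p = 0.109) per the authors' deposited table, and 4 of its 6 regions were above 0. At the shared Tnfsf12 and Tnfsf13 locus, which encodes TWEAK and APRIL, the region over the Tnfsf13 promoter, chr11:69685232-69685957, stood at 1.09 (adjusted p = 0.0118) per the authors' deposited table. A region near the other end of Tnfsf13 had 1.01 (adjusted p = 0.0205), and that at the Tnfsfm13 start, at the right end of Tnfsf12, had 0.66 (adjusted p = 0.145), per the authors' deposited table. Tnfsfm13 overlaps Tnfsf12 and Tnfsf13, and Tnfsf13os covers Tnfsf13 and part of Tnfsf12, so the values cannot be given to a single gene. Tnfrsf12a, the TWEAK receptor gene, had 2 regions, at 0.59 and -0.23 per the authors' deposited table, neither under 0.05.

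**Figure D3:**
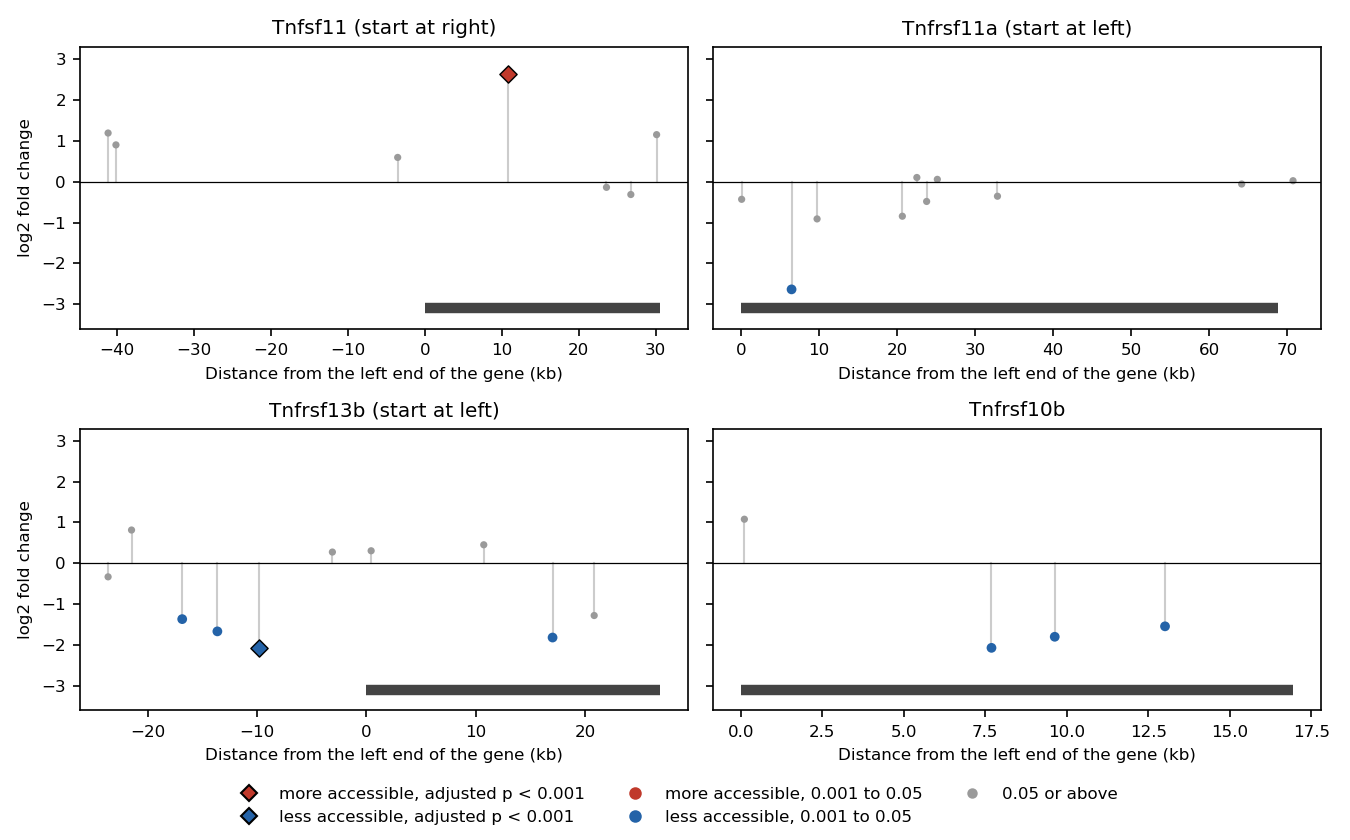
Log2 fold change (y axis) of the regions at Tnfsf11, Tnfrsf11a, Tnfrsf13b and Tnfrsf10b by distance in kb from the left end of each gene (x axis); dark bars are the gene extents, and the side of the start is given where RefSeq's promoter table lists it. The single Tnfsf11 gain stands at 2.65, while the regions under 0.05 at the 3 receptor genes are all below 0.

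Of the death receptors, Tnfrsf10b had the lowest median of any member gene with at least 4 regions. It encodes DR5, the mouse death receptor for TRAIL, and 3 of its 4 regions were lower at 0.05. Per the authors' deposited table they stood at -2.07 (adjusted p = 0.00429) for chr14:69773912-69776410, -1.80 (adjusted p = 0.0224) and -1.54 (adjusted p = 0.0153), all inside the gene. The region at the gene's left end had 1.08 (adjusted p = 0.0647) per the authors' deposited table. The median was -1.67 against a local median of 0.03 over 886 regions. The mouse decoy receptors for TRAIL, Tnfrsf22 and Tnfrsf23, lie side by side on chromosome 7 with Tnfrsf26. The Tnfrsf23 promoter region, chr7:143685323-143686426, had -1.14 (adjusted p = 0.0209), while the region at the matching end of Tnfrsf22 had 0.63 (adjusted p = 0.131), per the authors' deposited table. Outside Tnfrsf26 a region 2.16 kb from the gene had -1.93 (adjusted p = 0.0183) per the authors' deposited table. These 3 neighbours have related sequences, and the handling of reads that match several places was not given in the sources used here. Tnfsf10, the TRAIL gene, had a promoter at -0.03 (adjusted p = 0.97), a region inside the gene at -1.56 (adjusted p = 0.0478) and one 6.03 kb beyond it at 1.04 (adjusted p = 0.0303) per the authors' deposited table.

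Fas, the gene of a receptor that triggers apoptosis through its death domain, had 11 regions and 1 higher at 0.05. That region, 6.02 kb outside the gene on the side of its start, stood at 1.28 (adjusted p = 0.0123), and the promoter had 0.76 (adjusted p = 0.13), per the authors' deposited table. Fasl, the gene of its ligand on cytotoxic lymphocytes, had 8 of 10 regions below 0. The one under 0.05 was chr1:161798637-161799188, 10.4 kb upstream, at -2.04 (adjusted p = 0.00518) per the authors' deposited table, while the promoter stood at 0.28 with an adjusted p of 1. The Fas median was 0.30, but 0.06 by overlap with the gene or 5 kb and 0.76 with abundance at least 0. The Fasl median was -0.70, but -0.02 with only protein-coding genes as candidates and -1.39 with abundance at least 0. Tnfrsf21, which encodes the orphan death receptor DR6, held the most regions of any member, 25, with 3 higher and 1 lower at 0.05. The higher ones were at 1.62 (adjusted p = 0.0192), 1.60 (adjusted p = 0.00187) and 1.50 (adjusted p = 0.00565), and the lower one at -1.57 (adjusted p = 0.0163), per the authors' deposited table. Its promoter was at -0.12 (adjusted p = 1) per the authors' deposited table, so the differing regions were all away from it. Tnfrsf19, also known as TROY, and Tnfrsf25, the DR3 gene, had 5 and 2 regions and none under 0.05.

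The lymphotoxin system, which organises lymphoid tissue, gave 1 region under 0.05. It lay 4.25 kb upstream of Tnfsf14, the gene of the ligand LIGHT, at -1.40 (adjusted p = 0.00888) per the authors' deposited table. Ltb, the lymphotoxin beta gene, had 3 regions below 0, with the wide region over its promoter and body, chr17:35194008-35196159, at -1.46 (adjusted p = 0.0742) per the authors' deposited table. This window carries the NF-kB match printed above. Neither receptor gene had a region under 0.05. Ltbr had a single region, its promoter, at 0.09 (adjusted p = 0.788) and Tnfrsf14, the HVEM gene, had a promoter at -0.42 (adjusted p = 0.377) and 0 of 9 regions under 0.05, per the authors' deposited table.

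The remaining genes are costimulatory members, known mainly from lymphocytes and antigen-presenting cells. Tnfsf4, which encodes the OX40 ligand, had 2 of 9 lower. Per the authors' deposited table the wide region over the left end of Tnfsf4, chr1:161395031-161397277, stood at -1.58 (adjusted p = 0.00702), and one 44.2 kb away at -1.50 (adjusted p = 0.0363). Tnfsf18, the GITR ligand gene, had a region 12.5 kb upstream at 1.56 (adjusted p = 0.00562) per the authors' deposited table, while its other 5 regions did not pass 0.05. Cd40, the receptor gene of antigen-presenting cells, had 1 of 6 higher, at 1.29 (adjusted p = 0.0307), 3.34 kb outside the gene per the authors' deposited table. The 3 regions of Cd40lg lay between -1.44 and -1.02 per the authors' deposited table, none under 0.05. That gene is on the X chromosome, where the local median was -0.44. Tnfsf9, Tnfrsf9, Cd70 and Tnfsf15 had 5, 7, 5 and 3 regions and none under 0.05. All 5 regions of Cd70 and all 5 of Tnfsf9 were below 0, the lowest at -0.49 and -0.57 per the authors' deposited table.

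Cd27 is a special case of the nearest-gene rule. It encodes the receptor for CD70, present on lymphocytes and on part of the progenitor cells, and had only 1 member region, at 0.11 (adjusted p = 0.92) per the authors' deposited table. The noncoding RNA gene E130112N10Rik overlaps all of Cd27 and extends beyond both its ends, so the region over the Cd27 promoter was assigned to that gene. This region, chr6:125236678-125237789, stood at -1.95 (adjusted p = 0.00221) per the authors' deposited table. With only protein-coding genes as candidates Cd27 had 9 regions, 4 of them lower at 0.05 and 0 higher. Besides the promoter these were -2.07 (adjusted p = 0.00322) at -1.64 kb from the start, -1.40 (adjusted p = 0.0439) at chr6:125252288-125252597, and -2.22 (adjusted p = 9.42e-04) at chr6:125253940-125254430, per the authors' deposited table. The last lies within the noncoding gene Gm24175 and passed 0.001. The median over the 9 was -0.28, beside a local median of -0.07. By the same change of candidates Tnfsf11 had 21 regions in place of 7, with a second gain of 1.68 (adjusted p = 9.04e-04) at chr14:78382896-78383695 per the authors' deposited table, but also 4 lower regions at 0.05.

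At the promoters of the superfamily the counts were too small to set apart from all promoters. RefSeq's promoter table listed 32 of the 43 symbols, and 13 of 13 listed ligand genes and 17 of 19 listed receptor genes had a region over a promoter. Among these 13 ligand and 18 receptor regions 0 had an adjusted p under 0.001, and 3 were under 0.05, those of Cd27, Tnfrsf23 and Tnfsf13 described above. Over all promoter regions 0.908% rose and 1.96% fell, and 8.97% were higher and 9.12% lower at 0.05, so a count of 0 among so few is no result about the members. Ligand promoters ran from -1.46 at Ltb to 1.15 at Tnfsf11 with a median of -0.03, and receptor promoters from -1.95 at Cd27 to 0.76 at Fas with a median of -0.34, per the authors' deposited table. The median over all 12989 regions that overlap a listed promoter of any gene was 0.19. No test of that difference was made. The Tnfrsf18 promoter, assigned to another gene, stood at -0.0039 per the authors' deposited table.

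**Figure D4:**
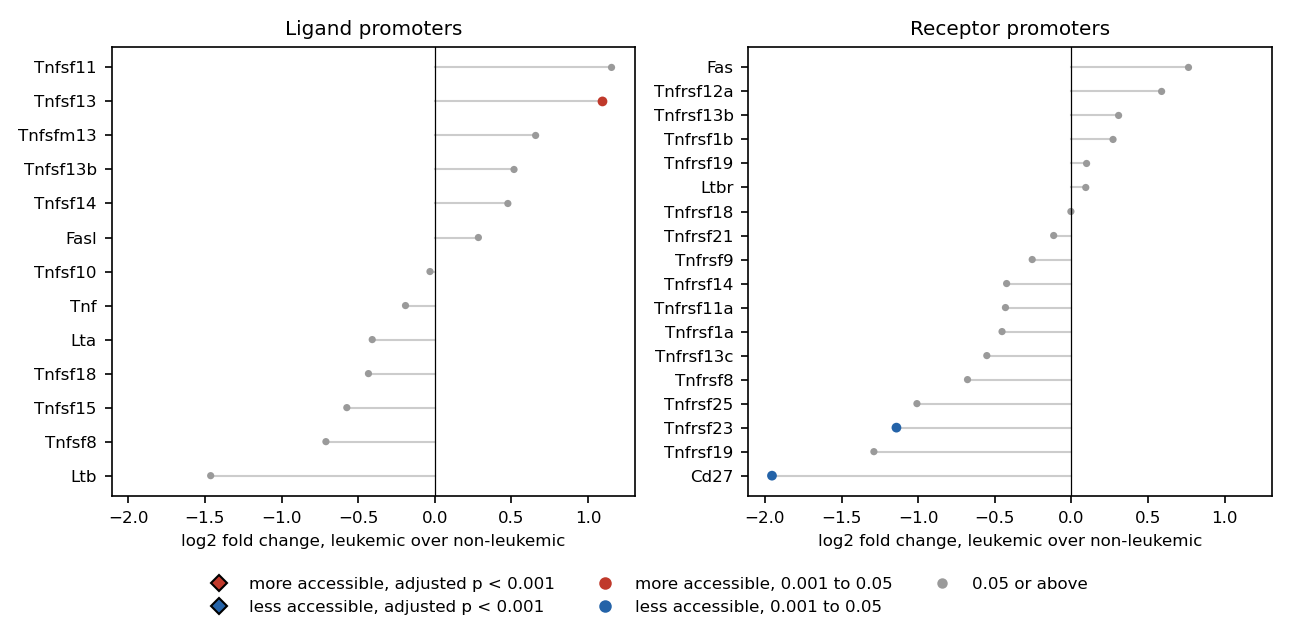
Log2 fold change (x axis) of the region over each listed promoter of a TNF superfamily gene, ligands left and receptors right, whatever gene is nearest to the region's centre; Tnfrsf19 has 2 listed promoters. The Cd27 promoter is lowest at -1.95, and 3 promoters carry a coloured dot for an adjusted p under 0.05.

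None of the 6 called regions lay over a listed promoter. Such regions make up only 11.1% of the members and 8.07% of all regions, so this is no result about the members. All 5 that rose were inside genes, where 49.2% of the members and 58.0% of all regions lie, and the one that fell was between genes. Ligand regions were inside genes in 33.7% of cases and between genes in 53.3%, receptor regions in 58.1% and 31.9%. Regions higher at 0.05 were narrower than lower ones among the members, with median widths of 319 and 726 bp, and the same order held over all regions, at 351 and 542 bp. Whether a region could pass the threshold moved with its read level: members not under 0.05 had a median abundance of -1.14, against 0.63 for the higher and 0.52 for the lower, and over all regions the medians were -1.43, -0.11 and 0.31. Among the 86 members with an abundance of at least 0, 4 rose (4.65%) and 1 fell (1.16%), beside 2.67% and 4.37% of the 42370 such regions of the whole table.

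**Figure D5:**
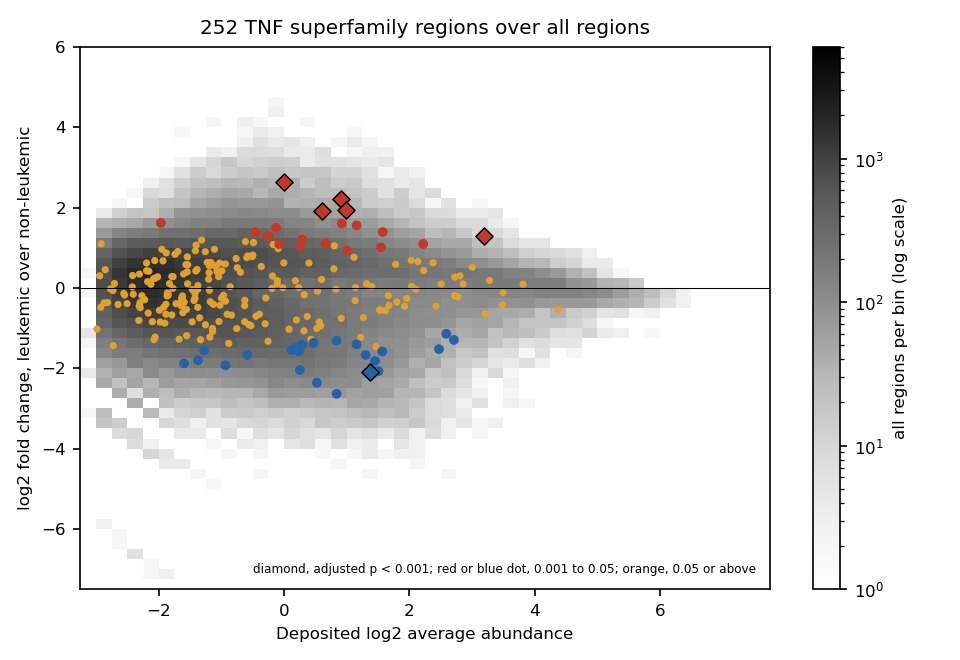
Log2 fold change (y axis) against the deposited log2 average abundance (x axis) for the 252 members, drawn over the number of all 160978 regions per bin (grey, log scale). The 6 diamonds, with an adjusted p under 0.001, all have an abundance above -0.01, and most members have an abundance below 0.

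Genes that carry the signal of these receptors were taken as 5 lists of 36 genes in all. Of their 319 regions 1 rose (0.313%) and 4 fell (1.25%), beside 1.24% and 1.22% of all regions. At 0.05, 30 were higher (9.40%) and 32 lower (10.0%), beside 7.98% and 9.21% of all regions, so the shares that fell or were higher or lower at 0.05 lay near those of the whole table. Of the 9 adaptor genes, Traf5 had a region inside the gene at -2.62 (adjusted p = 4.86e-05) and another at -1.99 (adjusted p = 0.00109) per the authors' deposited table, with 3 higher at 0.05. Traf1, an adaptor gene that NF-kB induces, had 2 higher regions outside the gene, 2.82 and 4.02 kb from it, at 1.29 (adjusted p = 0.00104) and 1.66 (adjusted p = 0.00151) per the authors' deposited table. The shares at 0.05 differed between lists, read against the same 7.98% higher and 9.21% lower, and the difference was not tested. The lower shares of the kinase and cell death lists and the higher share of the inhibitor list lay near these. Adaptor gene regions were higher in 12 of 70 cases (17.1%) and lower in 2 (2.86%). The higher ones were 4 at Traf3, 3 at Traf5, 2 at Traf1, 2 at Fadd and 1 at Edaradd, with 0 at Traf2, Traf4, Traf6 and Tradd. Cell death gene regions were higher in 4 of 23 and lower in 2. Kinase gene regions were higher in 5 of 113 (4.42%) and lower in 10 (8.85%). Inhibitor gene regions were higher in 8 of 90 (8.89%) and lower in 14 (15.6%). Of these, 6 of the higher ones lay at Tnip1 and 7 of the lower ones at Tank. The median within 5 Mb of the called Tank regions was -1.12, so the inhibitor share rests largely on 2 genes. Shedding gene regions were higher in 1 of 23 and lower in 4. Of the 5 cell death genes Cflar, which encodes the caspase-8 inhibitor c-FLIP, had 4 higher and 1 lower of 10 at 0.05. Ripk1, Ripk3 and Casp8 had 0 under 0.05 among 3, 1 and 6 regions.

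Among the kinase genes Map3k5, which encodes ASK1, had a region at 3.44 (adjusted p = 2.02e-05) and Map3k14, which encodes the NIK kinase of the alternative NF-kB route, had one at -2.57 (adjusted p = 8.78e-04), both inside the gene per the authors' deposited table. The called Map3k5 region had an abundance of -1.23, and the 38 Map3k5 regions had 5 higher and 3 lower at 0.05. The 18 Map3k14 regions had 4 lower and 0 higher at 0.05. Of the 10 inhibitor genes only Tank, which encodes a TRAF-binding regulator, had called regions. Its 2 regions over a listed promoter of any gene stood at -3.43 (adjusted p = 1.42e-04) and -1.12 (adjusted p = 7.56e-04) per the authors' deposited table. Tank lies in a part of chromosome 2 where the median within 5 Mb was -1.12, so the second value equals its surroundings and the first stands at -2.31 against them. Tnfaip3, the A20 gene, had 3 of 20 regions lower at 0.05, the lowest at -2.39 (adjusted p = 0.00164) per the authors' deposited table. Other inhibitor genes went the other way. Tnip1 had 6 of 15 regions higher and 0 lower at 0.05, the highest at 1.72 (adjusted p = 0.00152) per the authors' deposited table. Nfkbia had 1 of 4 higher, at 1.60 (adjusted p = 0.00386), and 0 lower, per the authors' deposited table. Adam17, which encodes the sheddase that releases TNF, had 2 of 6 lower, at -1.98 (adjusted p = 0.00597) and -1.81 (adjusted p = 0.00404) per the authors' deposited table.

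Several members are lymphocyte genes, so marker genes were read in the same table. Regions over a listed promoter were present at 5 of 6 progenitor genes, 4 of 6 T or NK cell genes, 2 of 5 B-cell genes, 3 of 5 erythroid genes, 1 of 4 monocyte genes and 3 of 4 neutrophil genes. Flt3, Cd4, Cd8a, Cd22, Ms4a1 and Slc4a1 were among those with regions but none over a listed promoter. Abundance per kb of region at these promoters ran from 0.79 to 2.92 for progenitor, from -1.50 to 1.63 for T or NK, from 0.04 to 0.56 for B-cell and from -1.95 to -0.44 for erythroid genes. The monocyte value was 1.12, and neutrophil values ran from 0.28 to 4.23. A listed promoter here may belong to another gene. Over all regions of a gene the highest abundance per kb was larger at some markers. It was 4.59 at Klf1, 3.76 at Klrb1c and 2.43 at Cd79a, beside 3.55 at Mpo and 3.46 at Meis1. At Cd4 and Ms4a1 it was -0.81 and -0.03. T or NK, B-cell and erythroid markers had 0 regions that rose and 0 that fell among 27, 33 and 23. Progenitor markers had 1 that rose and 7 that fell among 65, neutrophil markers 0 and 2 among 18, and monocyte markers 1 and 1 among 29, beside 1.24% and 1.22% of all regions. At 0.05 lower regions made up 20 of 65 for progenitor markers (30.8%), 9 of 29 for monocyte markers (31.0%) and 9 of 18 for neutrophil markers, beside 9.21% of all regions. The other lists had 2 of 27 lower for T or NK, 2 of 33 for B-cell and 2 of 23 for erythroid markers. The progenitor markers did not move as a set. Of their 20 lower regions 10 lay at Meis1, 5 at Cd34, 4 at Flt3 and 1 at Gata2. Kit and Mpo had 0 lower and 1 higher each, and the progenitor region that rose was at Mpo. In these sorted cells fewer cells of a kind and less open chromatin per cell cannot be told apart, and the part of cell makeup in the member results was not tested.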

How the data were processed

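Per the submitters' processing notes, reads were processed against GRCm38 (mm10) with Bowtie2 2.4.1, SAMtools 1.10.2 and Genrich 0.6 among the tools named. The authors' deposited table, whose title names csaw, holds per region a log2 fold change, a log2 average abundance, a p-value and an adjusted p-value, columns read by position and range. The deposited adjusted p-value equals a Benjamini-Hochberg adjustment over all 160978 regions to within 2.39e-15, and the authors' sets of more and less accessible regions equal an adjusted p under 0.001 by sign. Normalization, read filters and any transposase shift were not given in the sources used here. Depth per library is unknown, so no interval was set.

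Genes came from a RefSeq table of 49993 genes in GRCm38.p6, and a region centre went to the nearest gene extent within 100 kb. Where several genes were equally near all were kept, and 7 member regions are shared with a gene outside the superfamily. Promoters are RefSeq windows from 250 bases before to 50 after a start. Local medians of member genes under the nearest-gene rule use regions within 5 Mb of the gene's regions and leave out all member regions. Those of superfamily genes outside the rule leave out the gene's own regions. Where a local median was subtracted, and at the called signalling regions, all regions within 5 Mb of each region were used. The regions named are those with an adjusted p under 0.001, the lowest of each gene where under 0.05, the gene-end or promoter region of listed members, and signalling genes with a called region. Other regions under 0.05 and the further signalling genes were named after their values were seen. So were the Cd27, Tnfsf11, Tnfsf8 and Tnfrsf11a regions assigned by protein-coding genes. The members and lists were chosen with earlier results of these data known. No test of a list and no test between mice was made. The assignment was tested on simulated regions at well-separated genes, which does not cover overlapping or equally near genes. Python 3.11.15, pandas 2.3.3, numpy 2.4.6 and matplotlib 3.10.9 were used.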

Additional observations from a re-analysis of the deposited data

How the results depend on the processing

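No paired analysis was possible because the deposited comparison gives 1 value per region, and no library could be left out of it. Of the 5 member regions that rose and 1 that fell, 0 and 0 passed at an adjusted p under 0.0001, and 20 and 23 passed at 0.05. Leaving out Tnfrsf1b and Tnfrsf8, chosen after the data were seen, left 1 that rose. Regions that fell numbered 0 by overlap with the gene or 5 kb, since the Tnfrsf13b region lies beyond that, and 2 with protein-coding genes only. Signalling genes with a called region went from 4 to 2 at 0.0001 and 21 at 0.05. The ligand median of -0.26 became -0.51 with abundance at least 0, -0.36 with the local median subtracted and -0.41 by overlap. The receptor median of 0.01 became -0.14 with abundance at least 0 and -0.12 with the local median subtracted. Of 74 medians of 15 named genes under these settings 34 moved by at most 0.1 and 8 changed sign. These were Tnfrsf13b (0.15) by overlap, Tnfrsf1b with the local median subtracted (-0.03) and with protein-coding genes only (-0.03), Tnfsf4 with protein-coding genes only (-0.19), and Tnfrsf21 (-0.14), Tnfsf10 (0.51), Tnfsf13b (-0.92) and Tnfsf4 (-1.54) with abundance at least 0. The medians of Tnfsf11 (0.19) and Fasl (-0.02) with protein-coding genes only and of Fas (0.06) by overlap kept their sign at smaller size. The cause of these shifts was not tested beyond the change in regions counted. Unknown depth limits every fold.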

Other observations

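Superfamily genes whose symbols fall outside the rule held 31 regions with 0 called at an adjusted p under 0.001 and a median log2 fold change of -0.66, where 1.24% and 1.22% of all regions rose and fell, so a count of 0 is no result about these genes. Of the 31 regions 12 are on the X chromosome, at Eda and Eda2r, where local medians within 5 Mb were -0.46 and -0.50. The local medians were 0.16 at Edar, 0.12 at Relt and 0.37 at Ngfr. Eda, the X-linked ectodysplasin ligand gene, had 10 regions, all below 0, with 1 under 0.05 at -2.33 (adjusted p = 0.00853) per the authors' deposited table. Its receptor gene Edar had 1 of 8 regions lower at 0.05, at -1.07 (adjusted p = 0.0354) per the authors' deposited table. Relt, a receptor gene of blood tissues, had 1 of 7 lower, at -1.55 (adjusted p = 0.0135), and Ngfr, the p75 neurotrophin receptor gene, 1 of 4 higher, at 1.17 (adjusted p = 0.0166), per the authors' deposited table.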
